A study of Mus musculus with 3 samples.

Results

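The genes described here encode the constitutive proteasome, the large protease that degrades ubiquitin-tagged proteins. They were chosen by symbol alone: Psma, Psmb, Psmc or Psmd followed by a digit, without the immunoproteasome subunits Psmb8, Psmb9 and Psmb10 and without pseudogenes. This gave 37 of the 27998 genes in the deposited matrices. Of these, 14 encode the core particle (Psma1 to Psma7 and Psmb1 to Psmb7) and 17 the regulatory particle (Psmc1 to Psmc6, Psmd1, Psmd2, Psmd4 and the 8 lid subunits Psmd3, Psmd6, Psmd7, Psmd8, Psmd11, Psmd12, Psmd13 and Psmd14). A further 3 (Psmd5, Psmd9 and Psmd10) encode chaperones that help to build the base of the regulatory particle and are not part of the finished enzyme. Psma8 and Psmb11 are core subunits used in testis and thymus, respectively. Psmc3ip is no subunit: it encodes a factor of meiotic recombination named for its contact with the Psmc3 protein.

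The core particle is a barrel of stacked rings in which the alpha subunits form the outer rings and the gate, and the beta subunits form the inner rings. The beta subunits encoded by Psmb5, Psmb6 and Psmb7 cut the substrate, with chymotrypsin-like, caspase-like and trypsin-like activity. The regulatory particle caps the barrel: its ATPases (Psmc1 to Psmc6) unfold the substrate, Psmd4 binds ubiquitin chains and Psmd14 in the lid removes them. Immune signals such as interferon induce Psmb8, Psmb9 and Psmb10, which replace Psmb5, Psmb6 and Psmb7 in newly built particles. In the granulocytic lineage the early, protein-synthesizing precursors make azurophil granule enzymes such as myeloperoxidase (Mpo), and later precursors make specific granule proteins such as lactoferrin (Ltf).

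The study sorted CD133+ cells from the bone marrow of C57BL/6 mice and sequenced them as 3 libraries with a droplet method that counts the 3′ ends of mRNA molecules by unique molecular identifiers (UMIs). The libraries are labelled Ctrl (3 months), Young (3 months) and Old (27 months; the series' design text gives a lower age for the old mice). No label names a genotype or treatment, and cells of 3 mice were pooled in each library. Each condition was therefore a single library, mice could not be told apart, and no test between conditions was possible. The levels that follow are those of the cells analysed below, after the filters and without the groups set aside. Prom1, the gene of CD133, was at 52.7, 47.3 and 45.8 UMIs per 1000000 UMIs (CPM) in Ctrl, Young and Old. The title of the series calls the cells endothelial-like, but in the analysed cells 6 endothelial markers together held 7.50 to 8.82 CPM. Tek was at 0 UMIs in each library and Cdh5 at 1, 4 and 0 UMIs. The 4 specific granule genes Ltf, Camp, Ngp and Lcn2 held 106485 to 122937 CPM. Among the groups set aside, a dendritic-like group met the marker limits for 2 endothelial genes and a basophil- or mast-like group for 1.

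The matrices held 8362 to 10869 cells and 81434722 to 138030352 UMIs per library. After the filters, 9690 Ctrl, 6586 Young and 9579 Old cells of the neutrophil lineage were analysed, with medians of 9597, 10388 and 12710 UMIs. Groups with markers of other blood cells made up 0.799% of the kept Ctrl, 10.7% of the Young and 1.05% of the Old cells and were set aside. Young stood apart in a second way: 10 interferon-induced genes together held 1088 CPM there, against 77.1 in Ctrl and 56.5 in Old. Between 120 and 161 cell barcodes were shared by any pair of libraries.

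Cells were placed in 5 bands by their own Mpo UMIs per 10000 UMIs: under 1, 1 to under 5, 5 to under 20, 20 to under 60, and 60 and over. A band is a range of a continuous measure and not a cell type. Within 1.2-fold of the edge at 5 lay 17.5% of Ctrl, 15.2% of Young and 12.7% of Old cells, and the other edges had 2.08% to 4.89% of the cells near them. Mpo UMIs are whole counts, so a cell with 10000 UMIs or fewer is in the lowest band only without any Mpo UMI. The edge at 1 thus depends on depth. Median UMIs of the lowest band were 7493 in Ctrl, 8540 in Young and 10874.5 in Old. From the lowest to the highest band, the median over cells of the specific granule genes fell from 1592 to 154 per 10000 UMIs in Ctrl, from 1647 to 153.0 in Young and from 1325 to 153 in Old. The lowest band held 508, 531 and 866 cells of Ctrl, Young and Old, and the highest 1068, 1070 and 652. Cells are not replicates, so UMIs were summed per library and band.

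Messenger RNA of both proteasome particles took a larger share of the transcriptome in cells with more Mpo. Core particle genes together held 2487 CPM in the lowest band of Ctrl, and 2628, 2979, 4315 and 5106 CPM in the bands above it. The Young library went from 2445 through 2538, 2794 and 3781 to 4737 CPM. Old cells held 2525, 2653, 3396, 4531 and 5248 CPM. In each library the 5 bands were in the same order, and the exact 95% Poisson intervals of neighbouring bands did not overlap in any library. The lowest pair of bands was the closest, with intervals in Ctrl of 2439 to 2535 and 2613 to 2644, in Young of 2400 to 2491 and 2520 to 2556 and in Old of 2493 to 2558 and 2641 to 2666. The regulatory particle held 1187, 1278, 1409, 1942 and 2262 CPM in Ctrl and 1119, 1186, 1297, 1686 and 2010 CPM in Young. In Old it held 1220, 1309, 1623, 2073 and 2291 CPM. By plain CPM these were again in the order of the bands.

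**Figure D1:**
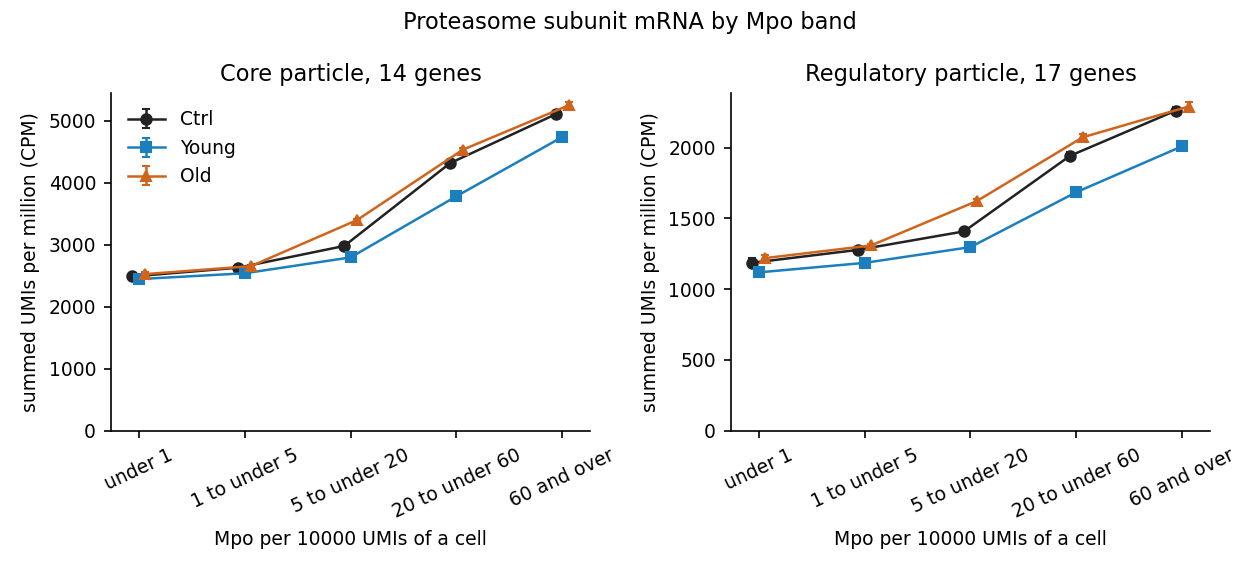
Summed CPM of the 14 core genes (left) and the 17 regulatory genes (right) in 5 bands of Mpo per 10000 UMIs, one line per library. Bars are exact 95% Poisson intervals, which cover counting error only and are mostly smaller than the symbols. Core levels rise from about 2445 to 2525 CPM in the lowest band to between 4737 and 5248 CPM in the highest, with the steepest part above 5 Mpo per 10000 UMIs.

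Between the outer bands the core rose by 1.04 in Ctrl, 0.95 in Young and 1.06 in Old on the log2 scale, a mean of 1.02 ± 0.054 (SD, n = 3 libraries) or 2.02-fold. The regulatory particle rose by 0.93, 0.85 and 0.91, a mean of 0.90 ± 0.044 or 1.86-fold. These libraries differ in label, so this SD holds any difference between conditions too, and a sign permutation over 3 libraries cannot reach p below 0.25. Typical cells showed the same order: the median core level per cell was 23.9 per 10000 UMIs in the lowest and 49.9 in the highest band of Ctrl, 23.7 and 46.8 in Young, and 23.9 and 52.0 in Old. Not scaled for depth, a cell of the lowest band held a mean of 20.3 core UMIs in Ctrl, 21.1 in Young and 26.8 in Old, and one of the highest band 62.7, 57.1 and 77.1.

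Much of this rise was shared with other genes. The median gene tested rose by 0.70 (log2 CPM) between the outer bands, and the 50 most abundant genes, granule protein genes among them, took 59.2% of UMIs in the lowest and 29.2% in the highest band of Ctrl (59.5% and 31.0% in Young, 56.8% and 29.0% in Old). With TMM scaling, which sets most genes to no change, the rise was 0.31 ± 0.075 (1.24-fold) for the core and 0.19 ± 0.074 (1.14-fold) for the regulatory particle (SD, n = 3). In Young alone these values were 0.22 and 0.11, the smallest of the libraries. The TMM-scaled core sum kept the order of the bands in each library, and the regulatory sum kept it in Ctrl and Young. In Old the regulatory sum went from 1811 in the band of 20 to under 60 to 1778 in the highest. The base ATPases went down between these bands in each library, from 688 to 680 in Ctrl, 618 to 588 in Young and 769 to 739 in Old. Markers of other cell types also differed between the outer bands: the sum of 7 monocyte markers went from 2.66, 20.3 and 11.4 CPM in Ctrl, Young and Old to 28.5, 46.7 and 40.4 CPM, and that of 6 NK and T cell markers, nearly all of it from Nkg7, from 181, 188 and 129 CPM to 2230.1, 2244 and 1874 CPM. The sum of 7 erythroid markers fell from 777 to 26.8 CPM in Ctrl and from 27.1 to 5.53 CPM in Old, and rose from 145 to 359 CPM in Young. The part of these markers in the result was not tested. The UMI share and the number of molecules per cell thus moved by different amounts, and total mRNA content of the cells was not measured.

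The balance between the 14 core and the 17 regulatory genes does not depend on the scaling. Shfm1, which encodes the lid component Sem1, falls outside the symbol rule and is not in these sums. It held 1740, 1671 and 1831 CPM in Ctrl, Young and Old, beside 1520, 1408 and 1532 CPM for the 17 regulatory genes together. Its log2 CPM rise was 0.26 ± 0.13 (SD, n = 3). The balance with Shfm1 added was not tested, so the ratios hold for the genes chosen by symbol. Core genes gave 2.096 UMIs per regulatory UMI in the lowest band of Ctrl, 2.06, 2.11 and 2.22 in the middle bands and 2.26 in the highest. In Young the ratio was 2.19, 2.14, 2.15, 2.24 and 2.36, and in Old it was 2.07, 2.03, 2.09, 2.19 and 2.29. It was lowest in the band from 1 to under 5 and highest in the band of 60 and over in all 3 libraries. The outer bands differed by 0.11 in Ctrl, 0.11 in Young and 0.15 in Old on the log2 scale, a mean of 0.12 ± 0.022 (SD, n = 3). The exact intervals of the outer bands did not overlap in any library (2.03 to 2.17 against 2.23 to 2.29 in Ctrl, 2.11 to 2.26 against 2.32 to 2.39 in Young, 2.02 to 2.12 against 2.25 to 2.33 in Old). By part, the summed log2 CPM rise was 1.09 ± 0.091 for the alpha and 0.95 ± 0.024 for the beta subunits. It was 0.85 ± 0.085 for the base ATPases, 0.92 ± 0.065 for the other base subunits and 0.93 ± 0.042 for the lid (SD, n = 3). The beta subunits thus lay near the lid and the other base subunits, and the alpha subunits and the ATPases lay farthest apart.

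**Figure D2:**
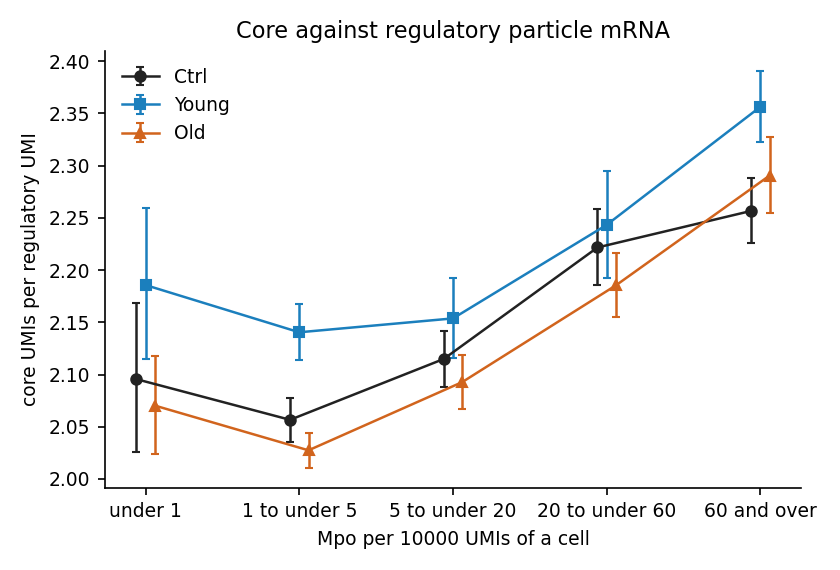
UMIs of the 14 core genes per UMI of the 17 regulatory genes in 5 bands of Mpo per 10000 UMIs, one line per library. Bars are exact 95% intervals for counting error. The vertical axis does not start at 0. The ratio lies between 2.03 and 2.19 in the lower 3 bands and between 2.26 and 2.36 in the highest band.

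Single genes were tested by edgeR's quasi-likelihood test on the 15 sums, with the library as a block, TMM scaling and Benjamini-Hochberg adjustment over 10548 genes. Of the 37 members, 36 passed the filter on low counts and 25 differed between the outer bands, 22 of them higher (Psma8, described below, among them) and 3 lower with Mpo. Among all genes tested, 33.1% were called higher and 35.9% lower, 69% in all, so that a call by itself was common. In the core 10 genes were higher, none was lower and 4 were not called, with a median of 0.32. In the regulatory particle 10 were higher, 2 lower and 5 not called, with a median of 0.19. The median of all genes tested was -0.027. By plain CPM, 34 of the 35 members with at least 10 CPM were above 1 in each library, against 70% of 6726 genes, and 29 were at 1.5-fold or more in each library, against 46.3%.

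Alpha subunits made up the upper end of the core. Psma4 (chr9:54950790-54958030 in GRCm38) was at 94.1, 95.9 and 90.7 CPM in the lowest band of Ctrl, Young and Old and at 322, 277 and 301 CPM in the highest, and the lowest and highest bands lay far apart. Its edgeR difference was 0.97 on the log2 scale (adjusted p = 6.08e-11), and its log2 CPM ratio was 1.68 ± 0.13 (SD, n = 3). Psma5 (chr3:108256926-108279974) rose by 0.70 (adjusted p = 3.14e-09) from 76.9 to 87.1 CPM in the lowest bands to 213 to 229 CPM in the highest, and Psma7 (chr2:180036374-180042433) by 0.65 (adjusted p = 2.84e-08) from 181 to 205 CPM to 469 to 513 CPM. Psma3 and Psma6 rose by 0.53 and 0.44. The other two of the ring, Psma1 (-0.08, adjusted p = 0.22) and Psma2 (-0.08, adjusted p = 0.29), were not called, although their CPM were higher in the highest band of each library. These 7 proteins stand in the ring in equal number, but their mRNAs differed in how they followed Mpo.

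Catalytic subunits were not uniform either. Psmb5 (chr14:54614119-54618022), the chymotrypsin-like subunit, went from 158, 142 and 152 CPM to 332, 300 and 344 CPM in Ctrl, Young and Old, an edgeR difference of 0.40 (adjusted p = 3.6e-06). Psmb6 (chr11:70525367-70527858), the caspase-like subunit, went from 203, 168 and 186 CPM to 356, 324 and 370 CPM, a difference of 0.21 (adjusted p = 0.0043). For Psmb7 (chr2:38588036-38644087), the trypsin-like subunit, 122, 109 and 114 CPM became 185, 177 and 187 CPM, a difference of -0.04 that was not called (adjusted p = 0.62). The annotation holds 1, 2 and 1 pseudogenes named for Psmb5, Psmb6 and Psmb7, whose reads the counting could split. Of the structural beta subunits, Psmb2 rose by 0.51 (adjusted p = 7.64e-08), Psmb1 by 0.24 and Psmb4 by 0.19, and Psmb3 was at 0.04 (adjusted p = 0.55). The calls of Psmb1 and Psmb4 were lost without Ctrl.

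Among the ATPases of the base, Psmc5 (chr11:106256154-106263120) rose by 0.62 (adjusted p = 4e-08), from 55.1 to 63.2 CPM in the lowest bands to 131 to 158 CPM in the highest. Psmc4 and Psmc1 rose by 0.23 and 0.19, the latter not called without Ctrl, and Psmc2 (-0.06), Psmc3 (0.04) and Psmc6 (-0.09) were not called. The scaffold subunits Psmd1 and Psmd2 rose by 0.47 and 0.24, and Psmd2 was not called without Ctrl. Psmd4, the ubiquitin receptor, was at 98.2, 94.8 and 99.98 CPM in the lowest and 184, 159 and 179 CPM in the highest band, and was not called (0.12, adjusted p = 0.12).

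The lid had the widest range. Psmd7 (chr8:107580381-107588464), the partner of Psmd14 in the lid's deubiquitinating pair, was at 52.9, 37.9 and 43.0 CPM in the lowest band and at 208, 142 and 183 CPM in the highest. Its edgeR difference of 1.29 (adjusted p = 1.78e-12) was the largest of the 31 subunits, and its log2 CPM ratio was 1.99 ± 0.092 (SD, n = 3). Psmd14 (chr2:61711694-61800376) itself was at 95.4, 82.2 and 88.2 CPM and at 140, 116 and 140.0 CPM, and was not called (-0.13, adjusted p = 0.089). Psmd3, Psmd11, Psmd12 and Psmd6 rose by 0.60, 0.47, 0.45 and 0.19, and Psmd6 was not called without Ctrl. Psmd8 (chr7:29174188-29180701) and Psmd13 (chr7:140881968-140898643) went the other way with TMM scaling, -0.19 (adjusted p = 0.017) and -0.26 (adjusted p = 0.0012). On library totals both were higher in the highest band, by 0.53 and 0.46 in the same test, since they rose by less than the median gene: Psmd8 went from 80.1, 86.3 and 110.5 CPM to 119, 132 and 146 CPM, and Psmd13 from 96.8, 93.9 and 108.6 CPM to 128, 139 and 143 CPM. Without Old, neither was called (-0.06 with adjusted p = 0.52 for Psmd8, and -0.17 with adjusted p = 0.059 for Psmd13). Psmd13 overlaps Gm15542 on its own strand and Sirt3 on the other. Other members also overlap annotated genes, Psma2 with AW209491 on its own strand among them. Whether the counting used the strand is not given in the sources used here.

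None of the 3 base chaperones was called higher. Psmd10 (chrX:140948429-140956728), also known as gankyrin, was the one member with at least 10 CPM that was lower in the highest band of each library, at 52.4, 46.6 and 56.8 CPM in the lowest and 45.9, 45.1 and 55.9 CPM in the highest band. Its edgeR difference was -0.79 (adjusted p = 9.39e-10), and on library totals it was -0.08 and not called (adjusted p = 0.33). Psmd5 (0.10, adjusted p = 0.35) and Psmd9 (0.17, adjusted p = 0.069) were not called.

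The remaining members are those that the symbol alone brought in. Psmc3ip rose by 1.53 (adjusted p = 6.36e-09), from 14.2, 14.6 and 10.4 CPM to 67.2, 51.9 and 61.4 CPM. Psma8, of which the analysed cells held 194 UMIs in all, reached 2.74, 3.03 and 3.34 CPM in the highest band, against 0, 0.218 and 0.217 CPM in the lowest. It passed the filter only through the bands in which it was high, so its call is not read as a result. Psma8 is the close paralogue of Psma7, and it gave 5.35, 6.45 and 6.53 UMIs per 1000 Psma7 UMIs in the highest band and 0.461, 1.46 and 1.12 in the lower 3 bands together. Whether some of its UMIs come from Psma7 reads was not tested. No UMI of Psmb11 was found among the 281677816 UMIs of the analysed cells, which allows up to 0.0107 CPM.

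**Figure D3:**
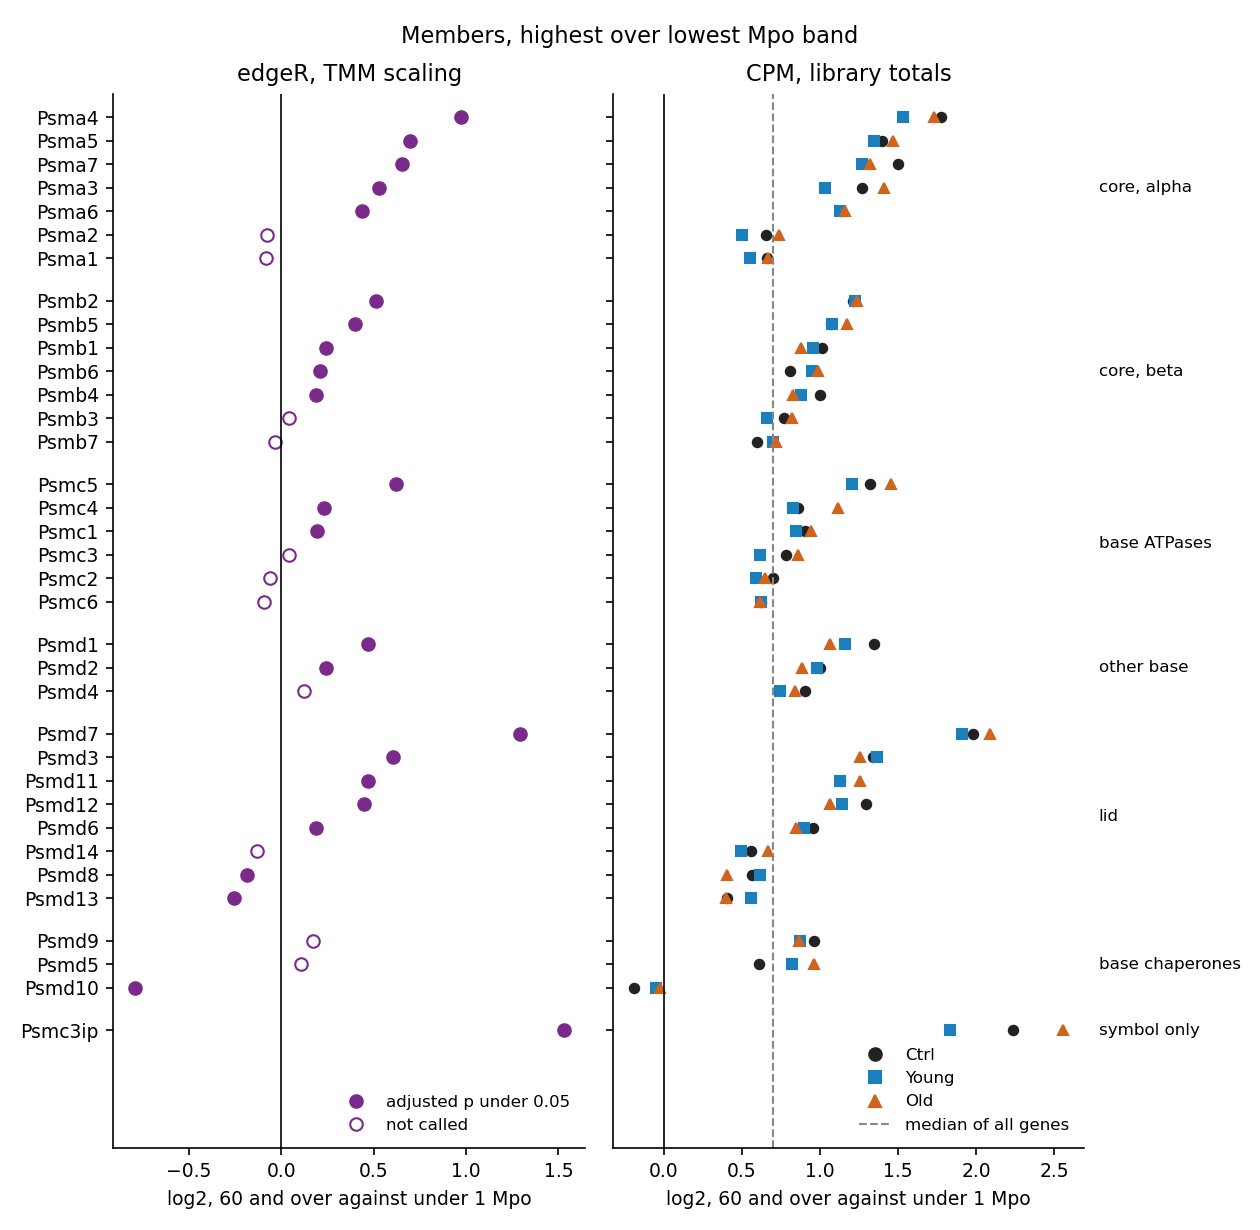
Log2 difference between the bands of 60 and over and under 1 Mpo per 10000 UMIs for 35 members, grouped by their place in the proteasome. The left panel gives the edgeR estimate with TMM scaling (filled, adjusted p under 0.05) and the right panel the CPM ratio in each library, with the median of all genes as a dashed line. Psmd7, Psma4 and Psmc3ip lie farthest to the right and Psmd10 farthest to the left in both panels.

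The middle of the range showed less. Between the bands of 5 to under 20 and under 1, the same fit called 8 of 36 members, 7 of them higher (Psma4 0.34, Psma5 0.20, Psma7 0.21, Psmb2 0.17, Psmc5 0.22, Psmd7 0.36 and Psmc3ip 0.57) and Psmd10 lower (-0.24). Of all genes tested, 8.3% were called higher and 8.53% lower, 16.8% in all. The count changed with each library: 0 members were called without Old, 2 without Ctrl and 4 without Young. In that band the Old cells also held more of the promyelocyte genes other than Mpo, with a median of 58.0 per 10000 UMIs against 27.0 in Ctrl and 20.8 in Young, and their part in the result was not tested.

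How closely each gene followed its own particle was measured across the 15 sums on the TMM-scaled log2 scale, as a description, since the sums share libraries and depth. The core and regulatory sums correlated at r = 0.92 (n = 15). Psmb2 was nearest to the other core genes (r = 0.98), and Psmd6 and Psmc1 were nearest to the other regulatory genes (r = 0.97 and 0.95). Psmd13 (r = 0.12), Psmd8 (r = 0.24) and Psma1 (r = 0.26) followed their particles least. Of the 31 subunits, 13 followed the other particle more closely than their own, 7 of the core and 6 of the regulatory particle. Among these, Psma1 and Psma2 were nearer to the regulatory sum (r = 0.61 and 0.65) than to the core (r = 0.26 and 0.34), as was Psmb7 (r = 0.68 against 0.37), and Psmd7 (r = 0.89 against 0.57), Psmd11 (r = 0.79 against 0.54) and Psmc5 (r = 0.89 against 0.68) were nearer to the core. The others were Psmb1, Psmb3, Psmb4, Psmb6, Psmd1, Psmd2 and Psmd3.

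Subunits that are needed in equal number differed in mRNA level within a library. UMIs of a 3′ method do not grow with transcript length, so genes are compared here by CPM without a length correction, although capture can differ between 3′ ends. In Ctrl the core ran from Psmb4 at 119 CPM to Psma2 at 348 CPM, 2.92-fold, in Young from Psma5 to Psmb3, 2.86-fold, and in Old from Psma5 to Psma2, 3.25-fold. Across the 17 regulatory genes chosen by symbol the range was wider, from Psmd3 at 32.7, 27.7 and 29.7 CPM to Psmc3 at 152, 156 and 158 CPM. This is 4.66-fold in Ctrl, 5.63-fold in Young and 5.31-fold in Old. The lid component Shfm1, outside the symbol rule, lay far above this range at 1740, 1671 and 1831 CPM.

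Promoter sequences were available for 30 of the 37 members in a RefSeq table of the build GRCm38.p6, as windows of 300 bases from 250 before to 50 after a gene's start (Psma8, Psmb1, Psmb2, Psmb7, Psmc3, Psmd3 and Psmd7 are not in it). Proteasome genes are known targets of the transcription factor Nfe2l1, which acts at antioxidant response elements. The core of that element, TGACNNNGC, was searched on both strands together with the CCAAT box, and they do not share letters of a match in the windows shown. TGACNNNGC was found in 5 of the 32 windows of these members (15.6%; Psma6 and Psmc2 have a pair each), those of Psmb5, Psmb6, Psmc6, Psmd9 and Psmd12, against 12.4% of 32851 windows in the table. CCAAT was found in 13 member windows (40.6%) against 37.4% of all windows, in 6 of 12 core windows and 4 of 15 regulatory windows. The member shares are near those of all promoters. The windows of the 3 subunits with the largest rise among those in the table are printed first, 5′ to 3′ on the strand of the gene, with any match to either motif in capitals.
Psma4, chr9:54950609-54950908, plus strand: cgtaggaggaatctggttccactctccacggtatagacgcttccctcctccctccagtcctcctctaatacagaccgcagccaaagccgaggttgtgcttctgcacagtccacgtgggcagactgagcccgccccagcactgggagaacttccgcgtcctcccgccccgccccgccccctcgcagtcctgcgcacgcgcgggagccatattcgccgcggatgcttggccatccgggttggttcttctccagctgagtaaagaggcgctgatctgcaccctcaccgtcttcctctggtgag
Psma5, chr3:108256676-108256975, plus strand: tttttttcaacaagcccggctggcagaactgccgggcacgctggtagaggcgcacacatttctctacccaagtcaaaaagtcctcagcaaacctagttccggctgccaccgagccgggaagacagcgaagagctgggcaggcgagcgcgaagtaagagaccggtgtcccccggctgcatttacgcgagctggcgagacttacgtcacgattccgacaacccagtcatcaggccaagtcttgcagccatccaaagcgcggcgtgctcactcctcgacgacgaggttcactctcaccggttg
Psma7, chr2:180042415-180042714, minus strand: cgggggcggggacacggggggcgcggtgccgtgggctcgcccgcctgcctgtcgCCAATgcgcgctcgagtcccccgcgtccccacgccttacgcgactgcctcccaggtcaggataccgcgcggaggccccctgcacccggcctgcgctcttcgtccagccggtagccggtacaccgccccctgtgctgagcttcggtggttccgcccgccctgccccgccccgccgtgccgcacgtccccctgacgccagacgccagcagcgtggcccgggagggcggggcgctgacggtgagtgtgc
The 3 members called lower with TMM scaling follow. The window of Psmd10 holds 3 CCAAT matches, one on the plus and a pair on the minus strand of the gene, where it reads ATTGG.
Psmd10, chrX:140956662-140956961, minus strand: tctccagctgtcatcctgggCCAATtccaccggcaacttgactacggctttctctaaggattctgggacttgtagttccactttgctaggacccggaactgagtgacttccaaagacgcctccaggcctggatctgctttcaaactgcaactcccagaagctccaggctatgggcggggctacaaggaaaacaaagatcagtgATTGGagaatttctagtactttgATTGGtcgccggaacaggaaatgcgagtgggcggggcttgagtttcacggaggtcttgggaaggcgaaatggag
Psmd13, chr7:140882144-140882443, plus strand: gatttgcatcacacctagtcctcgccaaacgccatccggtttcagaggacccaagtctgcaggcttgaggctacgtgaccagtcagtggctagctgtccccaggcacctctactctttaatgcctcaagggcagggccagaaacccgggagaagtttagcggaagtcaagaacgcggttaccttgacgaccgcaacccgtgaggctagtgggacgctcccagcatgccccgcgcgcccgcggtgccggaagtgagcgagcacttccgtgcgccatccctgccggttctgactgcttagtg
Psmd8, chr7:29180624-29180923, minus strand: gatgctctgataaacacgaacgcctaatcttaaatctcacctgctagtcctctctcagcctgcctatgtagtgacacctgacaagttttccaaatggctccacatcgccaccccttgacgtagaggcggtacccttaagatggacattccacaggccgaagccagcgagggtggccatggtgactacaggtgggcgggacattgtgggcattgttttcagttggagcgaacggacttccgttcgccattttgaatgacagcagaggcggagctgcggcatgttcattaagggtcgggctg
Last are the 3 called subunits whose window holds TGACNNNGC, which begins 47 bases before the start of Psmb5 and 9 bases before that of Psmb6, and lies on the other strand at 247 bases before that of Psmd12.
Psmb5, chr14:54617946-54618245, minus strand: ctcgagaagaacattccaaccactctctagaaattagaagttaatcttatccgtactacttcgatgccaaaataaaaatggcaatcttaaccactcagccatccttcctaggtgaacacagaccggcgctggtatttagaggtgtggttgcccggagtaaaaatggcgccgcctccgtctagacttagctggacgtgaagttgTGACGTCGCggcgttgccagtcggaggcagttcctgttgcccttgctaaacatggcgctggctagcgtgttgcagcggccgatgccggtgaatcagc
Psmb6, chr11:70525107-70525406, plus strand: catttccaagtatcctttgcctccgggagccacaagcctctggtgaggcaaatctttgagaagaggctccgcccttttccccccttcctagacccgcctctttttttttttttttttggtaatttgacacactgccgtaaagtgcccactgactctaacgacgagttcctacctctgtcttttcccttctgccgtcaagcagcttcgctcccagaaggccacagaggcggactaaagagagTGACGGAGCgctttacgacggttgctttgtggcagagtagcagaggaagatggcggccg
Psmd12, chr11:107479278-107479577, plus strand: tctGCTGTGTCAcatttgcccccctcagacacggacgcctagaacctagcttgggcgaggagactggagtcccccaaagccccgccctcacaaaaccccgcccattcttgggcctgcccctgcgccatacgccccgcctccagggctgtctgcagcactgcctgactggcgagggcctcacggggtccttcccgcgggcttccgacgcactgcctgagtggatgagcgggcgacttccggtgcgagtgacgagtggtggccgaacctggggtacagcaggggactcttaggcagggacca
Neither motif was found in the windows of Psma4, Psma5, Psmd13 and Psmd8. These differed in direction with TMM scaling, but by plain CPM all were higher in the highest band of each library. No factor's binding was measured in these data.

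The genes that help to build the core rose with Mpo. All 5 genes of the core assembly list were called higher with Mpo, against 33.1% of all genes tested. Psmg1 rose by 1.38 (adjusted p = 3.99e-11), Psmg4 by 1.09, Psmg2 by 1.07, Psmg3 by 0.77 and Pomp by 0.34 (edgeR, log2). Psmg1 to Psmg4 form the chaperone pairs on which the alpha ring is built, and Pomp is the maturation factor that is degraded by the finished core. Psmg1 went from 22.9, 20.1 and 14.8 CPM in Ctrl, Young and Old to 88.5, 80.4 and 72.8 CPM. Their summed TMM-scaled rise was 0.59 ± 0.038 (SD, n = 3) beside 0.31 for the core itself, and the list's median was 1.07 beside -0.027 for all genes tested. Of the parts that bind the regulatory particle, the deubiquitinases Usp14 (1.09) and Uchl5 (0.49) and the ubiquitin receptor Adrm1 (0.29) rose, and Shfm1, an older symbol of the lid component Sem1, was lower with TMM scaling (-0.45, adjusted p = 2.03e-06). By plain CPM Shfm1 was higher in the highest band of each library, with a log2 ratio of 0.26 ± 0.13 (SD, n = 3).

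Of 5 genes for 4 activators and an inhibitor of the core, 3 were called higher, against 33.1% of all genes tested. The inhibitor gene Psmf1 rose by 0.72, and the activator genes Psme4 and Psme3 by 0.51 and 0.37. The interferon-induced pair Psme1 (0.09, adjusted p = 0.20) and Psme2 (0.02, adjusted p = 0.76) was not called. In the list around Nfe2l1, only Vcp, the ATPase that extracts proteins for degradation, rose (0.38), whereas Ddi2 (-0.55), Ngly1 (-0.83) and Nfe2l2 (-0.90) were lower with TMM scaling and Nfe2l1 itself was not called (0.19, adjusted p = 0.23). By plain CPM the log2 ratios of Ddi2, Ngly1 and Nfe2l2 were 0.17 ± 0.27, -0.12 ± 0.24 and -0.19 ± 0.21 (SD, n = 3), with signs that differed between libraries. Ddi2 and Ngly1 encode the protease and the glycanase that process the Nfe2l1 protein. Rps27a, which encodes ubiquitin fused to a ribosomal protein, rose (0.70), Ubb, which encodes a chain of ubiquitins, was lower with TMM scaling (-0.74; -0.029 ± 0.12 by plain CPM, SD, n = 3), and Uba1, the ubiquitin-activating enzyme, was not called (0.05, adjusted p = 0.66). The 10 cell cycle genes had a summed difference of -1.04, -0.94 and -0.60 (log2) in Ctrl, Young and Old with TMM scaling, and of -0.37, -0.20 and 0.13 by plain CPM.

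Over all analysed cells, the constitutive proteasome stood almost level between libraries. The core held 3248 CPM in Ctrl, 3119 in Young and 3218 in Old, and the regulatory particle 1520, 1408 and 1532 CPM. The paper compared Young with Old cells for age. It reported 10869 CD133+ cells, the cell number of Ctrl, apart from that comparison. Old and Ctrl differed by -0.013 for the core (exact 95% interval -0.020 to -0.0065, log2) and by 0.012 for the regulatory particle (0.0017 to 0.022). Ctrl and Young, both labelled 3 months, differed by 0.059 (0.051 to 0.067) and 0.11 (0.099 to 0.12). The comparisons share libraries, and the intervals cover counting error only. Old and Young differed by 0.045 (0.038 to 0.053) and 0.12 (0.11 to 0.13). Over all cells, the difference between the libraries of one labelled age was larger in size than that between Old and Ctrl for both particles. It was also larger than that between Old and Young for the core but not for the regulatory particle. Between Ctrl over Young and Old over Ctrl, this order turned for the core without cells above the 90th percentile of UMIs in their library (0.013 for Ctrl over Young against 0.025 for Old over Ctrl), and in UMIs per cell it turned for both particles (-0.0053 against 0.32 for the core, 0.047 against 0.34 for the regulatory particle). The median over all genes was -0.078 for Old over Ctrl and -0.0065 for Ctrl over Young.

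Libraries differ in how their cells spread over the bands, so the ratios were also taken within each band. Old over Ctrl, the core differed by 0.022, 0.014, 0.19, 0.070 and 0.040 from the lowest to the highest band, and the regulatory particle by 0.039, 0.034, 0.20, 0.094 and 0.018. All these values were above 0, although the ratio over all cells was -0.013 for the core, but the intervals included 0 for the core in the lowest band (-0.012 to 0.056) and for the regulatory particle in the lowest (-0.0090 to 0.088) and the highest (-0.0071 to 0.043). The largest lay in the band of 5 to under 20, in which the other promyelocyte genes were also higher in Old. The median over all genes for Old over Ctrl was -0.080, -0.068, 0.051, -0.0094 and -0.036 in the same order of bands. It was thus above 0 only in the band of 5 to under 20. Ctrl over Young, the core differed by 0.025, 0.050, 0.092, 0.19 and 0.11 and the regulatory particle by 0.085, 0.11, 0.12, 0.20 and 0.17, likewise all above 0, with an interval that included 0 for the core in the lowest band (-0.014 to 0.063). Old over Young, the core differed by 0.046, 0.064, 0.28, 0.26 and 0.15 in the same order of bands. The regulatory particle differed by 0.12, 0.14, 0.32, 0.30 and 0.19. On the log2 scale Old over Young is Old over Ctrl plus Ctrl over Young. As Old over Ctrl was above 0 in every band, both particles differed more between Old and Young than between Ctrl and Young. This is no separate result, and it differs from the core over all cells. The median over all genes by band was 0.011, 0.016, 0.0095, 0.020 and -0.025 for Ctrl over Young. For Old over Young it was -0.072, -0.043, 0.075, 0.044 and -0.020.

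Over all analysed cells, none of the 35 members with at least 10 CPM passed a 1.5-fold limit in any of these comparisons. Of all genes, 5.37% of 5458 were higher and 8.92% lower between Old and Ctrl. Between Ctrl and Young, 2.7% and 3.59% of 5550 genes passed, and between Old and Young 5.11% and 9.92% of 5577 genes. At a limit of 1.2-fold, 4 members were higher in Old than in Ctrl (background 17.4%) and 2 lower (background 29.8%). Psmd9 was at 33.2 CPM in Ctrl, 29.2 in Young and 43.1 in Old, a difference of 0.38 (0.31 to 0.44) between Old and Ctrl. Psmd8 was at 93.6, 101 and 119 CPM (0.35), Psmd10 at 48.9, 46.4 and 59.0 CPM (0.27) and Psmb1 at 259, 282 and 311 CPM (0.26). In each of these the Old library was the highest of the 3. The members that were lower in Old than in Ctrl were Psmc3ip, at 27.4, 25.4 and 21.4 CPM (-0.35), and Psmd7, at 89.0, 68.3 and 71.7 CPM (-0.31). Psmd7 was also the one member past 1.2-fold between Ctrl and Young (0.38, background 12.8%), so that Ctrl stood above both other libraries. The lowest differences after it were Psmd11 (-0.21) for Old over Ctrl, and Psmb1 (-0.12), Psmd8 (-0.11) and Psmb4 (-0.06) for Ctrl over Young, where Psmd3 (0.24) and Psmc5 (0.24) followed Psmd7 at the upper end. Between Old and Young, 3 members were higher at 1.2-fold (background 15%) and 0 were lower (background 29.7%). The 3 were Psmd9 (0.56, 0.49 to 0.64), Psmd10 (0.35) and Psmc1 (0.31). The interval of Psmd9 spans the 1.5-fold limit. Within each band its Old over Young ratio was past that limit (0.72, 0.61, 0.64, 0.74 and 0.71).

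**Figure D4:**
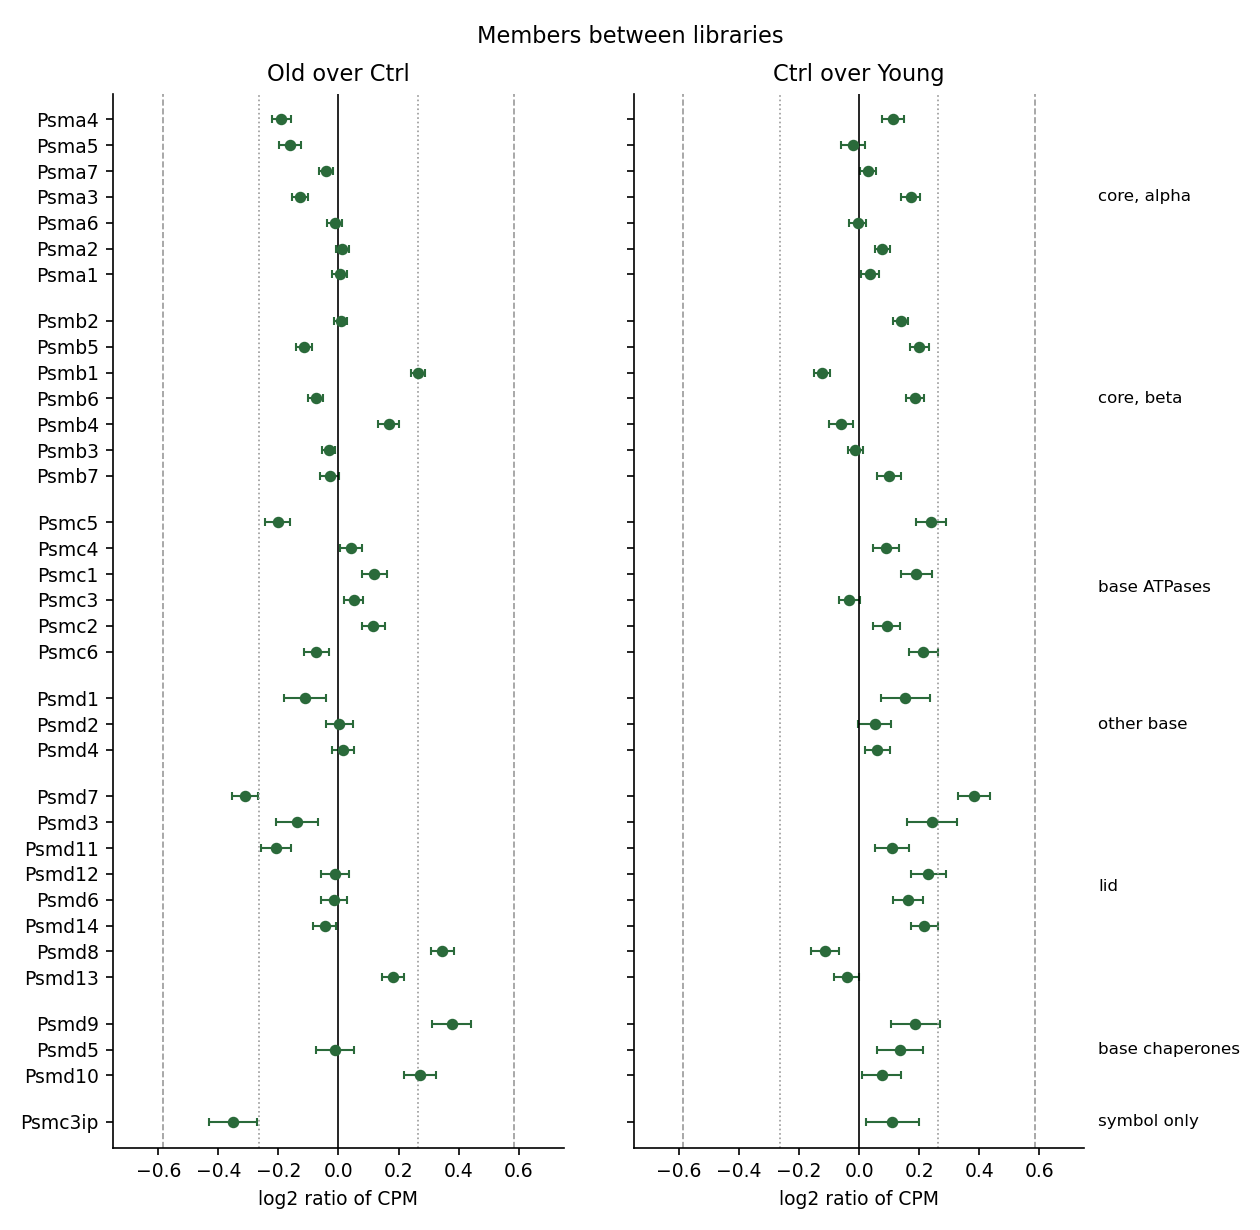
Log2 ratio of CPM over all analysed cells for 35 members, Old over Ctrl (left) and Ctrl over Young (right), with exact 95% intervals for counting error. Dashed lines mark 1.5-fold and dotted lines 1.2-fold. All points lie inside the dashed lines, and Psmd9, Psmd8, Psmd10 and Psmb1 lie on or beyond the dotted line at the upper side on the left.

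The catalytic subunits that interferon induces differed more between libraries than the constitutive ones that they replace. Psmb8, Psmb9 and Psmb10 together held 275 CPM in Ctrl, 505 in Young and 280 in Old. Of the UMIs of the 6 catalytic genes, they gave 31.2% in Ctrl (exact 95% interval 30.9 to 31.5), 48.4% in Young (48.0 to 48.7) and 32.8% in Old (32.5 to 33.1). Psmb5, Psmb6 and Psmb7 together held 606, 539 and 574 CPM in Ctrl, Young and Old. Young was the library with high interferon-induced genes, and the activator genes Psme1 and Psme2 were also higher there, at 182 and 219 CPM against 124 and 153 CPM in Ctrl and 119.7 and 142 CPM in Old. The part of the interferon genes in these levels was not tested, and with 1 library per label it cannot be told apart from the label.

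Across the Mpo bands the share of induced subunits moved little as a whole, from 31.5% to 33.9% in Ctrl, from 51.0% to 45.8% in Young and from 32.6% to 34.2% in Old, but the pairs went apart. Psmb10 gave 17.9%, 28.5% and 12.3% of the UMIs of Psmb10 and Psmb7 in the lowest band of Ctrl, Young and Old, and 34.0%, 40.6% and 31.4% in the highest. Psmb9 gave 26.8%, 48.8% and 29.9% of the UMIs of Psmb9 and Psmb6 in the lowest band and 18.9%, 34.3% and 20.9% in the highest. By edgeR, Psmb10 rose (adjusted p = 8.14e-05, with a log2 CPM ratio of 1.91 ± 0.48, SD, n = 3) and Psmb8 by 0.32 (adjusted p = 0.0040), and Psmb9 was lower with TMM scaling (-0.53, adjusted p = 4.37e-07). By plain CPM Psmb9 was slightly higher in the highest band of each library, with a log2 ratio of 0.18 ± 0.11 (SD, n = 3), so its direction turned with the scaling.

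**Figure D5:**
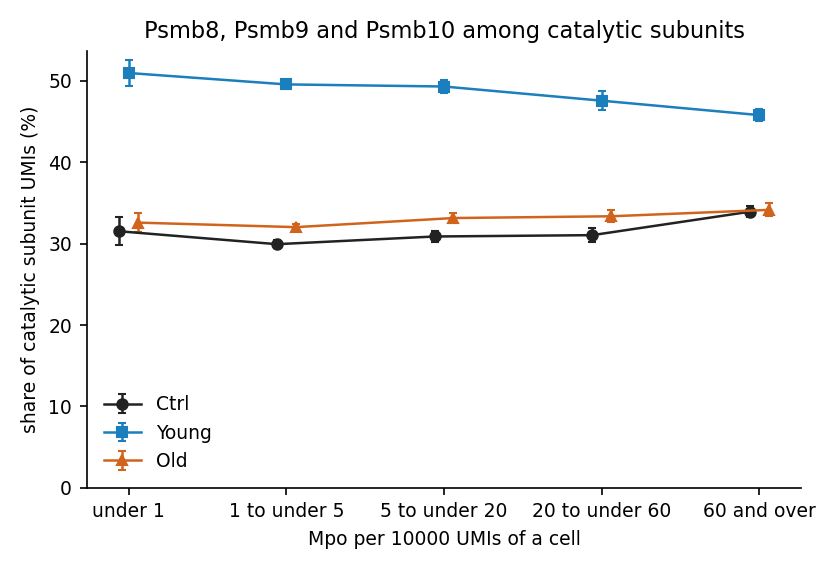
Share of Psmb8, Psmb9 and Psmb10 among the UMIs of all 6 catalytic subunit genes in 5 bands of Mpo per 10000 UMIs, one line per library, with exact 95% binomial intervals for counting error. Young lies between 45.8% and 51.0%, and Ctrl and Old between 29.9% and 34.2%.

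By plain CPM, the groups of other blood cells that were set aside held larger shares of proteasome mRNA than the lower 3 Mpo bands. In those bands the 50 most abundant genes took 48.4% to 59.5% of UMIs. The set-aside groups were not TMM-scaled, and the part of the denominator in this difference was not tested. In the monocyte-like groups the core was at 4375 CPM in Ctrl (78 cells), 5005 in Young (500 cells) and 4659 in Old (86 cells), and the regulatory particle at 1911, 1960 and 1960 CPM. The Ctrl group met the marker limits for 7 monocyte genes, but also for 4 dendritic and 4 B-progenitor genes, so it can be mixed. The group shared by Young and Old met them for 7 monocyte genes, 1 dendritic and 1 macrophage gene. In Young, 126 B-progenitor-like cells held 4638 and 2241 CPM, 60 NK- or T-like cells 4568 and 1951 CPM and 52 dendritic-like cells 4150 and 1870 CPM. The monocyte-like core level lay between those of the highest 2 Mpo bands in Ctrl and Old and above that of the highest band in Young. Its interval overlapped that of the band of 20 to under 60 in Ctrl (4210 to 4544 against 4277 to 4355) and Old (4513 to 4808 against 4496 to 4567). In the dendritic-like and NK- or T-like groups of Young the immunoproteasome held 1480 and 1370 CPM.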

How the data were processed

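The authors sorted CD133+ bone marrow cells, built 3 libraries with the Chromium 3′ v2 kit and deposited UMI counts per gene and cell, without normalization. The submitters' processing notes name STAR, Cell Ranger 2.1.0 and the build mm10. The members and gene lists were chosen with earlier results of these data known.

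The study's limits were applied again: a cell was kept with 200 genes or more, at most 20% mitochondrial UMIs and a UMI count between the 5th and 95th percentile (of Ctrl alone, and of Young and Old pooled). Cells were grouped by Leiden clustering (resolution 1, 15 neighbours, 20 components of 2000 variable genes; Ctrl alone, Young and Old together). A group was set aside where 3 or more markers of a different lineage reached 10 CPM and exceeded the other cells 10-fold. A demand that such a marker be found in 20% of the group's cells was not in the planned rule and was added after the groups had been seen; it kept Young cells with haemoglobin UMIs, and without it 1667 in place of 786 Young cells were set aside. Doublets were not called; the cells above the 90th percentile of UMIs were left out as an alternative. RNA from the surrounding fluid was not subtracted, so Mpo in the lower bands can include it.

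UMIs were summed per library and band and tested with edgeR 4.0.16 (R 4.3.3; glmQLFit and glmQLFTest, TMM, filterByExpr, library as block, 8 residual degrees of freedom), with calls at an adjusted p under 0.05. Bands of a library come from the same pooled mice, so p-values measure the spread between these sums. DESeq2 1.42.0 was an alternative. The study tested cells, which treats cells as replicates. Between libraries, UMI sums were compared with exact 95% conditional intervals, which cover counting error only, and by size limits of 1.5 and 1.2 among genes with at least 10 CPM.

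Named genes were fixed by rule: the catalytic subunits, Psmd4, Psmd14, the 3 highest and 3 lowest members of each comparison by ratio, members against the direction of their particle, members under 10 CPM, and the pathway lists, of which some genes are not reported here. Other members are named to account for the lists. Positions came from GENCODE M21. Scripts ran in Python 3.11.15 with leidenalg 0.10.2, scipy 1.17.1 and numpy 2.4.6.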

Additional observations from a re-analysis of the deposited data

How the results depend on the processing

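The size of the band difference depended on the denominator, and its sign did not in any setting run. The core rise (1.02, log2) was 0.31 with TMM-scaled CPM, a setting chosen after seeing the data, 0.26 without the 50 most abundant genes, 1.33 without ribosomal protein and mitochondrial genes, 0.93 in groups by Elane, 0.94 with no group set aside and 1.53 in UMIs per cell. The regulatory rise (0.90) was 0.19, 0.14, 1.21, 0.80, 0.82 and 1.41 in the same order, and 0.84 without cells above the 90th percentile of UMIs. Leaving out 1 library gave 0.996 to 1.05 for the core, 0.88 to 0.92 for the regulatory particle and 0.11 to 0.13 for their difference. That difference stayed within the spread between libraries in all settings run. Settings that change only the denominator cannot move it, so they are no check of it.

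Without the library as replicate block, 16 members were called between the outer bands in place of 25 and 0 in place of 8 in the middle contrast. Every library has the replicate number 1 and no number pairs mice, so the block stands for the library alone. Library totals in place of TMM gave 35 and 30 calls, all higher, with Psmd8 at 0.53 and Psmd13 at 0.46. Leaving out 1 library gave 20 to 25 calls in the outer contrast and 0 to 4 in the middle one. The 5 calls lost without Ctrl were Psmb1, Psmb4, Psmc1, Psmd2 and Psmd6. The middle contrast gave 5 calls with no filter, 4 with no group set aside and 21 with edges at 2, 10, 30 and 80.

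Differences between libraries moved with the settings by as much as their own size. Old over Ctrl, the core (-0.013) became 0.025 without the deepest cells, -0.041 without the 50 most abundant genes, 0.0031 without ribosomal protein and mitochondrial genes, 0.32 in UMIs per cell and 0.067 with bands weighted equally. The regulatory particle (0.012) became 0.054, -0.016, 0.028, 0.34 and 0.078. Ctrl over Young, the core (0.059) became 0.11 without trimming by UMIs, 0.013 without the deepest cells, -0.0084 with no group set aside, 0.029 by the planned rule for setting groups aside, -0.0053 in UMIs per cell and 0.093 with bands weighted equally, and the regulatory particle (0.11) became 0.17, 0.060, 0.057, 0.082, 0.047 and 0.14. By that planned rule, without the demand on the share of cells, the band contrasts still gave 25 and 8 calls. At 1.2-fold, 6 members passed for Old over Ctrl and 1 for Ctrl over Young, in place of 0. The causes were not tested. With 1 library per label, no comparison of labels has a replicate check.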
